A study of Homo sapiens with 11 samples.

Results

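OXTR encodes the oxytocin receptor, and its transcript was measured in 11 tumours grown in mice from PC-3, an established human prostate carcinoma cell line. OXTR is 1 of the 25590 genes in the deposited tables, and it was chosen on its values in these same tumours, where it was higher in tumours from mice given A2M than in tumours from mice given PBS. The difference between the groups is therefore given as a description, without a test. The oxytocin receptor is a G protein-coupled receptor at the cell surface that binds the peptide hormone oxytocin and, more weakly, vasopressin. It couples mainly to Gq and G11 proteins, which activate phospholipase C and release calcium from internal stores, and it can also couple to Gi proteins. It is best known from the contraction of the uterus and of the myoepithelium of the breast, and it is also found in the brain, in the smooth muscle of the prostate and in several carcinomas.

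The tumours had been raised under the skin of male athymic nude mice (Crl:NU-Foxn1nu), 8 weeks old, which lack mature T cells. The A2M group (n = 6) came from mice injected with A2M*, the transformed form of the human plasma protease inhibitor alpha-2-macroglobulin, and the PBS group (n = 5) from mice injected with phosphate-buffered saline. Both groups carried the same cell line, and 1 library was made per tumour. Tumours are named by group and by their number in the labels, from PBS-123 to PBS-127 and from A2M-128 to A2M-132, with A2M-112 as the remaining one. Between 16958533 and 35874381 human-specific reads per tumour were counted on genes, and reads assigned to the mouse host were not analysed here. The mean total was 31.7 M ± 3.90 (SD, n = 5; M for 1e+06 counts) in the PBS group and 26.2 M ± 6.10 (SD, n = 6) in the A2M group (exact permutation of the group labels, two-sided, p = 0.119).

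In the GENCODE annotation mapped to GRCh37, the build that corresponds to the authors' hg19, OXTR lies on the minus strand of chromosome 3 between 8792067 and 8811314. Its main transcript has 4 exons, of which exons 1 and 2 hold 5′ untranslated sequence. Translation starts in exon 3 (8808952 to 8810015) and ends in exon 4 (8792067 to 8794910), and the coding sequence of 1167 bases makes up 389 codons, the stop codon not counted. The stop codon and the 3′ untranslated region in exon 4 make up 2599 of the 4387 exonic bases. The deposited RPKM values divide by an exon length of 4360 bases. The span of CAV3, a muscle caveolin gene on the opposite strand, covers OXTR, but 0 other annotated genes have an exon that overlaps an exon of OXTR, and CAV3 itself had at most 4 counts in any tumour.

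The window from 250 bases before to 50 bases after the main start site is shown because it is where transcription of OXTR begins. It was searched for sequence motifs, some of them of factors described further on. It is taken from RefSeq (GRCh38.p14, chr3:8769564-8769863, minus strand), and the same 300 bases occur once on chromosome 3 of GRCh37, from 8811250 to 8811549. The window is written 5′ to 3′ in the direction of transcription, with a Sp1 GC box (GGGCGG) in capitals.

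OXTR start site window: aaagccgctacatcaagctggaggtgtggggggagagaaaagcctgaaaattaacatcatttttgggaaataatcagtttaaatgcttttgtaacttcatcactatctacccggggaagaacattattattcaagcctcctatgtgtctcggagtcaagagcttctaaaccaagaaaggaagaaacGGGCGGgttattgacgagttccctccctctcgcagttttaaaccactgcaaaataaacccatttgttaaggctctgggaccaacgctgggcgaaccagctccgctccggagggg

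The GC box starts 64 bases before the start site and is the only match in this window among 5 motifs that were searched on both strands. The same letters are present in 45.0% of the 35116 RefSeq windows of this length. The AP-1 motif (TGANTCA) is present in 7.71% of all windows, the oestrogen receptor motif AGGTCA in 13.8%, the Maf motif TGCTGAC in 4.19% and the TATA box (TATAAA) in 11.5%, and none of these letters were found in the 3 windows that RefSeq gives for OXTR. GC content was 46.3% in the window shown and 67.7% and 59.3% in the 2 other windows of OXTR, with a median of 58.7% over all windows.

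OXTR was detected in every tumour, with 690 to 1640 counts, so that counting error was between 2.47% and 3.81% of each value. Expression is given as CPM (counts per 1e+06 counts, scaled with edgeR's TMM factors). In the PBS group OXTR stood at 32.3 CPM in PBS-123, 36.6 in PBS-124, 35.1 in PBS-125, 27.7 in PBS-126 and 36.9 in PBS-127. In the A2M group it stood at 44.1 CPM in A2M-128, 40.7 in A2M-129, 46.7 in A2M-130, 49.7 in A2M-131, 43.0 in A2M-132 and 51.3 in A2M-112. Every A2M tumour was above every PBS tumour, and the groups were separated by a gap of 3.80 CPM between PBS-127 and A2M-129. The library of A2M-129 was also the shallowest, with 690 counts of OXTR. Counting error was 1.55 CPM in A2M-129 and 1.02 CPM in PBS-127, and it does not cover the biological spread between tumours.

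The mean was 33.7 CPM ± 3.85 (SD, n = 5) in the PBS group and 45.9 CPM ± 4.06 (SD, n = 6) in the A2M group. In the edgeR fit across all genes the log2 fold change of OXTR was 0.45 (SE 0.0881), an increase of 36.2%. OXTR was chosen on this contrast, so the separation of its groups is no finding, and 118 of the 16630 genes tested (0.71%) had groups that did not overlap. In 64 of those genes (0.385%) every A2M tumour was the higher. A log2 difference larger in size than that of OXTR was found in 546 genes (3.28%).

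**Figure D1:**
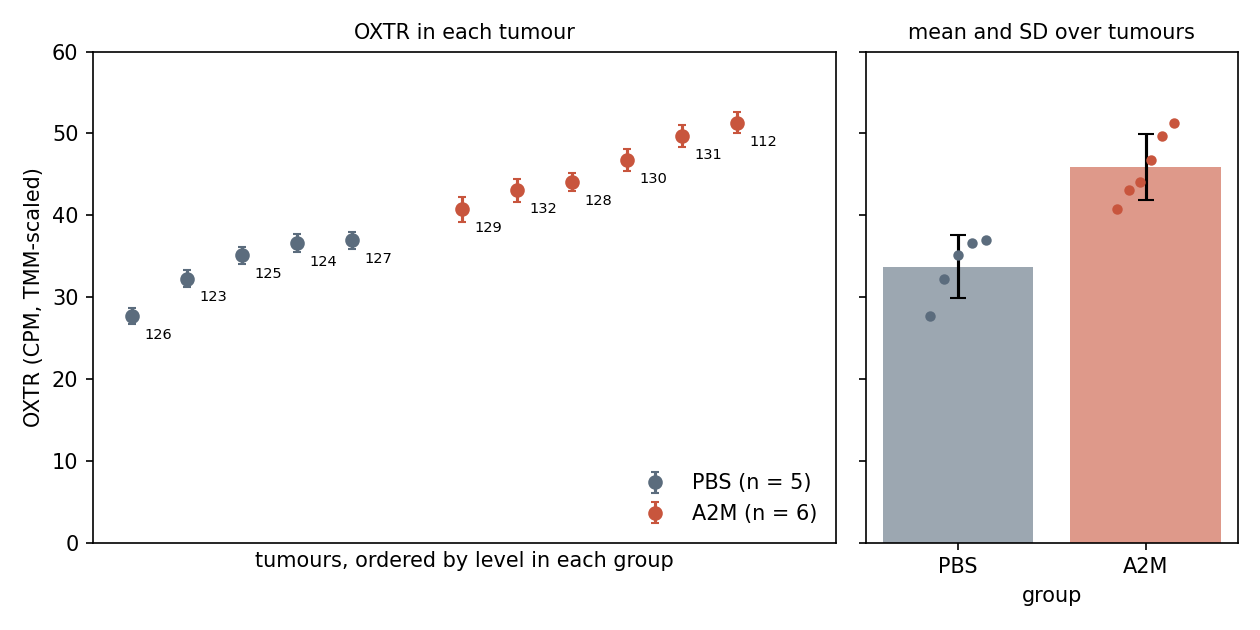
OXTR in CPM (vertical axis) for each tumour (left; points with counting error, labelled by tumour number) and as group mean with SD (right; bars, with points for the tumours). The 5 PBS tumours lie between 27.7 and 36.9 CPM and the 6 A2M tumours between 40.7 and 51.3 CPM.

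The same separation was present in the values as the authors normalized them. OXTR was between 27.8 and 36.2 RPM (reads per 1e+06 counted reads) in PBS tumours and between 40.7 and 51.1 RPM in A2M tumours. Per length of the transcript, this was 7.59 RPKM ± 0.742 (SD, n = 5) and 10.7 RPKM ± 0.964 (SD, n = 6). Raw counts overlapped between the groups, and the mean total was smaller in the A2M libraries. Whether more cells carried the transcript or each cell carried more of it cannot be told apart in RNA of whole tumours.

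OXTR was chosen on the separation of its groups, which favours a small spread within them. The spread of OXTR within the groups is therefore only a description. The coefficient of variation was 11.4% over the PBS tumours and 8.84% over the A2M tumours, which includes the counting error. The biological coefficient of variation estimated by edgeR was 10.8%, against a median of 12.4% over all genes tested, and 34.5% of these genes had a lower value. PBS-126 had the lowest level of all. Without it the PBS coefficient of variation was 6.04%, and the log2 fold change was 0.38. Some tumours could not be ordered by OXTR, as PBS-124 and PBS-127 differed by 0.317 CPM and A2M-132 and A2M-128 by 1.02 CPM, which is less than the counting error of either tumour in each pair.

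Among the peptide receptors that were looked up, OXTR had one of the higher transcript levels in these tumours. The list does not hold every peptide receptor. Of all genes tested, 58.4% had a lower mean RPKM than OXTR. Of 77 peptide receptor genes that were looked up, 45 had under 10 counts in every tumour and 14 had a mean of at least 1 RPKM. OXTR ranked 4 of 77 with a mean of 9.27 RPKM ± 1.81 (SD over 11 tumours), in the mean of either group and in each single tumour. F2RL1, a receptor cleaved and activated by trypsin-like proteases, was the highest with 33.8 RPKM ± 6.91. BDKRB2, the bradykinin B2 receptor, had 14.03 RPKM ± 2.98, and F2R, the thrombin receptor, had 14.02 RPKM ± 2.31, so that these neighbours in the order did not differ beyond their spread. OPRL1, the nociceptin receptor, followed OXTR with 6.73 RPKM ± 1.06, and MC1R, the melanocortin receptor of pigment cells, with 5.32 RPKM ± 1.09. In all 11 tumours OXTR was lower than F2R and higher than OPRL1.

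The sister receptors, which bind vasopressin, were low. AVPR1A, the V1a receptor of blood vessels and liver, had 0.192 RPKM over all tumours, with 25 to 61 counts. AVPR1B, the V1b receptor of the pituitary, had between 0.348 and 1.10 RPKM. AVPR2, which controls water uptake in the kidney, had 3 to 16 counts and a mean of 0.140 RPKM. OXTR was thus the leading transcript of its family in every tumour.

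**Figure D2:**
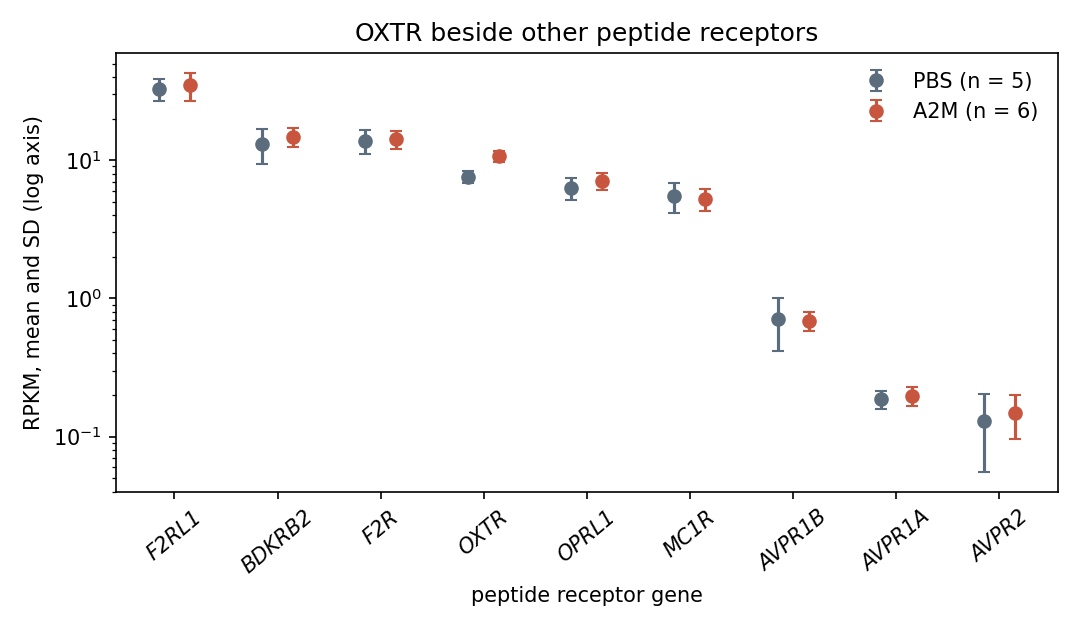
Transcript levels in RPKM on a log axis (mean and SD) of OXTR, the 5 other listed peptide receptors with the highest levels and the 3 vasopressin receptors, in PBS (n = 5) and A2M (n = 6) tumours. OXTR lies below F2RL1, BDKRB2 and F2R and far above the vasopressin receptors.

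The other receptors did not pass the test between the groups, and in the main fit neither did any other gene, OXTR included. With edgeR's quasi-likelihood test, 0 of 16630 genes (0%) passed an adjusted p of 0.01, while 1178 genes (7.08%) had an unadjusted p under 0.05, of which 591 (3.55%) were higher and 587 (3.53%) lower in A2M tumours. DESeq2 and edgeR's likelihood ratio test each called 1 gene, REP15. Of 73 receptors for other peptides, 26 were tested, and 0 had an unadjusted p under 0.05. Their log2 fold changes lay between -0.42 and 0.47, with a median of 0.055, beside a median of -0.0021 over all genes. The values were 0.047 (SE 0.15) for F2RL1, 0.13 (SE 0.16) for BDKRB2 and 0.12 (SE 0.13) for OPRL1. F2R stood at -0.00043 (SE 0.13), with a sign that turned under other normalizations. For the vasopressin receptors the log2 fold changes were 0.051 (SE 0.15) for AVPR1A, -0.078 (SE 0.24) for AVPR1B, whose sign turned with limma, and 0.19 for AVPR2. The SE of AVPR2 was 0.36, so that for AVPR2, as for AVPR1B, a difference of the size of that in OXTR could not have been told from 0.

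The ligands were close to absent from the human transcripts. OXT, which encodes oxytocin and its carrier neurophysin, had at most 2 counts in any tumour and 0 in 5 of them. AVP, which encodes vasopressin, had 0 counts in all 11 tumours, and a count of 0 allows up to 3 counts, which were worth 0.0836 to 0.177 RPM depending on the tumour. The human reads say nothing of oxytocin that the host may have supplied.

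Of the enzymes that make and break down the peptide, some were well expressed and others were near the limit of detection. PCSK1, a convertase of neuropeptide precursors, had at most 12 counts, and PCSK5, a convertase of the same family, had 0.0329 RPKM. CPE, which trims basic residues after such cleavage, had 34.6 RPKM, and PAM, which adds the C-terminal amide that oxytocin carries, had 49.5 RPKM. PAM was between 248 and 320 CPM in PBS tumours and between 227 and 266 CPM in A2M tumours, overlapping groups with a log2 fold change of -0.26 (SE 0.0750), and it was the 1 gene of the 6 tested in this list with an unadjusted p under 0.05, beside 7.08% of all genes. CPE had a log2 fold change of -0.19 (SE 0.11) and PCSK5 one of 0.23 (SE 0.29).

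CD38, which is needed for the release of oxytocin in the brain, had at most 3 counts. LNPEP, the aminopeptidase known as oxytocinase, was at 1.43 RPKM with a log2 fold change of 0.023 (SE 0.21), a sign that turned when single tumours were left out. PREP and THOP1, peptidases of the cytosol that cleave small peptides, were at 19.1 and 15.3 RPKM, with log2 fold changes of -0.12 (SE 0.0741) and -0.089 (SE 0.12).

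Genes of the signalling chain downstream of OXTR were expressed, at transcript levels that differed between family members. Of the G proteins the receptor couples to, GNA11 stood at 17.6 RPKM and GNAQ at 0.557 RPKM, a pair named after their values were seen. Calmodulin, the calcium sensor that links the receptor to kinases and calcineurin, is encoded by several genes, and CALM2 had 319 RPKM, the highest level of the list. Its log2 fold change was 0.011 (SE 0.0882), with a sign that changed when single tumours were left out.

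Over all lists of the oxytocin pathway, 99 of 109 genes were tested and 0 passed the threshold on the adjusted p in edgeR, DESeq2, limma-voom or any other fit. An unadjusted p under 0.05 was found for 13 of the 99 (13.1%), 3 higher and 10 lower in A2M tumours, beside 7.08% of all genes, and the number was between 8 and 16 in other fits and between 6 and 16 with 1 tumour left out. It was 6 without A2M-131, 7 without PBS-125 and 8 with limma on log2(RPKM + 0.1). The median log2 fold change of the 99 genes was 0.0053, and in 0 of them did the groups fail to overlap, beside 0.71% of all genes. The smallest adjusted p of the lists was 0.599 in the quasi-likelihood test.

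Of the 22 genes tested for Gq and calcium signalling, 3 had an unadjusted p under 0.05, beside 7.08% of all genes. ITPR1, a channel that releases calcium from the endoplasmic reticulum on binding inositol trisphosphate, was at 23.4, 47.4, 56.3, 53.6 and 41.0 CPM in PBS-123 to PBS-127 and had a lowest value of 20.4 and a highest of 34.2 CPM in A2M tumours. PBS-123 was within the A2M range and the 4 other PBS tumours were above it, with a log2 fold change of -0.65 (SE 0.20). Its paralogue ITPR2 had a log2 fold change of the opposite sign, 0.31 (SE 0.13). CAMK2G, a calmodulin-dependent kinase, had a log2 fold change of -0.15 (SE 0.0642).

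Of the 16 genes tested for Gi and MAP kinase signalling, 4 had an unadjusted p under 0.05, all lower in A2M tumours, beside 3.53% of all genes that were lower. They were SRC, a kinase of the membrane, with a log2 fold change of -0.24 (SE 0.0668), EGFR, the growth factor receptor that G protein-coupled receptors can transactivate, with -0.36 (SE 0.12), MAPK3, which encodes ERK1, with -0.17 (SE 0.0800), and EEF2, the elongation factor, with -0.18 (SE 0.0814). SRC was between 120 and 138 CPM in PBS tumours and between 100.8 and 125.7 CPM in A2M tumours, so that the groups overlapped. The highest levels of the list were those of EEF2, with 336 RPKM, and GNAI2, with 121 RPKM and a log2 fold change of -0.070 (SE 0.0673).

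Receptor desensitisation and trafficking was represented by 14 genes, all tested, of which 1 had an unadjusted p under 0.05, beside 7.08% of all genes. This was RGS5, a regulator that shortens G protein signals, which was low at 0.640 RPKM and had a log2 fold change of 0.33 (SE 0.12). CLTC, the clathrin heavy chain, had 73.0 RPKM and a log2 fold change of 0.031 (SE 0.0768), and RGS2, which acts on Gq, had 72.7 RPKM and a log2 fold change of 0.026 (SE 0.31). Both signs turned under alternatives. RGS2 differed widely between tumours of the same group, from 56.8 to 153 CPM under PBS and from 49.8 to 161 CPM under A2M.

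Of the 19 genes for calcineurin, NFAT and prostaglandin output, 3 had an unadjusted p under 0.05, beside 7.08% of all genes. FOS, an immediate early gene that calcium and MAP kinase signals induce, was at 1.09, 2.74, 11.4, 6.26 and 1.65 CPM in PBS-123 to PBS-127 and between 1.13 and 2.28 CPM in A2M tumours. PBS-125 and PBS-126 were high and the other three reached no more than 2.74 CPM. Its log2 fold change was -1.57 (SE 0.51), and -0.90 without PBS-125. PTGS2, the inducible cyclooxygenase of prostaglandin synthesis, was between 6.22 and 16.1 CPM under PBS and between 4.99 and 10.7 CPM under A2M, with a log2 fold change of -0.56 (SE 0.25). NFATC2, a transcription factor that calcineurin activates, had a log2 fold change of 0.33 (SE 0.15). The highest levels were those of PTGES3, at 82.4 RPKM with a log2 fold change of 0.088 (SE 0.0641), and JUN, at 48.9 RPKM with 0.22 (SE 0.17).

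**Figure D3:**
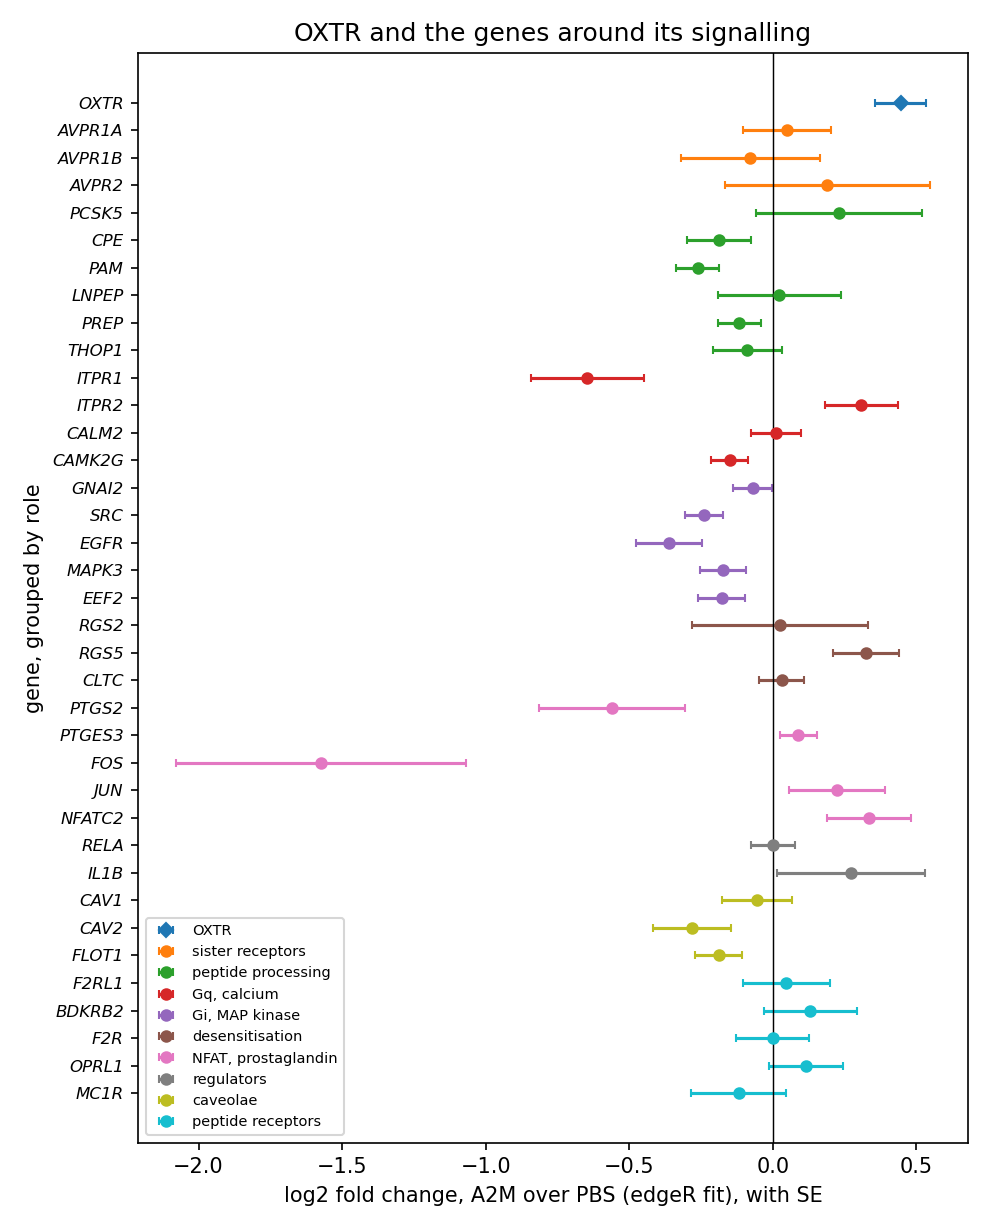
Log2 fold changes with SE (A2M over PBS, edgeR fit) of OXTR and of 36 tested genes around it, coloured by role. OXTR stands at 0.45, ITPR1 at -0.65 and FOS at -1.57. In this fit 0 of all 16630 genes tested passed the threshold on the adjusted p, OXTR and the 36 other genes included.

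The genes reported to regulate transcription of OXTR did not pass the test, which no gene passed in the main fit. Of 16 genes 15 were tested, and 0 had an unadjusted p under 0.05, beside 7.08% of all genes. RELA, a subunit of NF-kappa B, had 49.0 RPKM and a log2 fold change of 0.0023 (SE 0.0765), whose sign turned under alternatives, and IL1B, which induces NF-kappa B, had 32.1 RPKM and one of 0.27 (SE 0.26). IL1B stood at 94.2 CPM in A2M-112 and at no more than 57.8 CPM in any other tumour, and its log2 fold change was 0.018 without A2M-112 and 0.43 without A2M-132. SP1, the factor of the GC box in the window shown, had 25.1 RPKM. The oestrogen receptors, through which oestrogen raises OXTR in the uterus, were low, with 0.244 RPKM for ESR1 and 0.495 RPKM for ESR2. PGR, the progesterone receptor, had 1 to 16 counts. SP1 and the steroid receptors were named after their values were seen.

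OXTR can reside in caveolae, membrane pits rich in cholesterol, so their coat genes were listed. CAV1, the main caveolin, had 89.0 RPKM with a log2 fold change of -0.055 (SE 0.12), and CAV2 had 36.7 RPKM with -0.28 (SE 0.14). The sign for CAV1 turned when single tumours were left out. PTRF, also called CAVIN1, which caveolin needs to form caveolae, had at most 11 counts and was named after its values were seen. FLOT1, a protein of flat lipid rafts, had the 1 unadjusted p under 0.05 among the 4 genes tested, beside 7.08% of all genes, with a log2 fold change of -0.19 (SE 0.0807).

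The genes around OXTR on chromosome 3 did not pass the test between the groups, which no gene passed in the main fit, OXTR included. Of the 15 other genes in the tables that lie wholly within 1000000 bases of OXTR, 10 were tested, 0 passed the threshold, and 1 had an unadjusted p under 0.05, beside 7.08% of all genes. This gene was LMCD1, which encodes a LIM domain protein of the nucleus and starts 268 kb downstream, and its log2 fold change of -0.42 (SE 0.15) had the opposite sign to that of OXTR. SSUH2 starts 24.6 kb downstream and had 0.438 RPKM, with a log2 fold change of -0.029 (SE 0.23). RAD18, a ubiquitin ligase of DNA damage tolerance, is the next gene on the upstream side. It had 8.45 RPKM, close to the level of OXTR, and a log2 fold change of -0.012 (SE 0.0941).

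Farther upstream, the log2 fold changes were 0.21 (SE 0.19) for SRGAP3, 0.12 (SE 0.0780) for THUMPD3, 0.085 (SE 0.0670) for THUMPD3-AS1, 0.0056 (SE 0.0723) for SETD5, -0.10 (SE 0.0728) for MTMR14 and 0.030 (SE 0.0806) for BRPF1. LMCD1-AS1, an antisense RNA on the downstream side, had -0.0049 (SE 0.19). THUMPD3 and THUMPD3-AS1 overlap on opposite strands, as do LMCD1 and LMCD1-AS1, and the library kit does not mark strand, so reads of a pair cannot be told apart where their exons meet. CAV3, SNORA43, SRGAP3-AS3, LHFPL4 and CPNE9 had at most 15 counts in any tumour and were not tested.

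**Figure D4:**
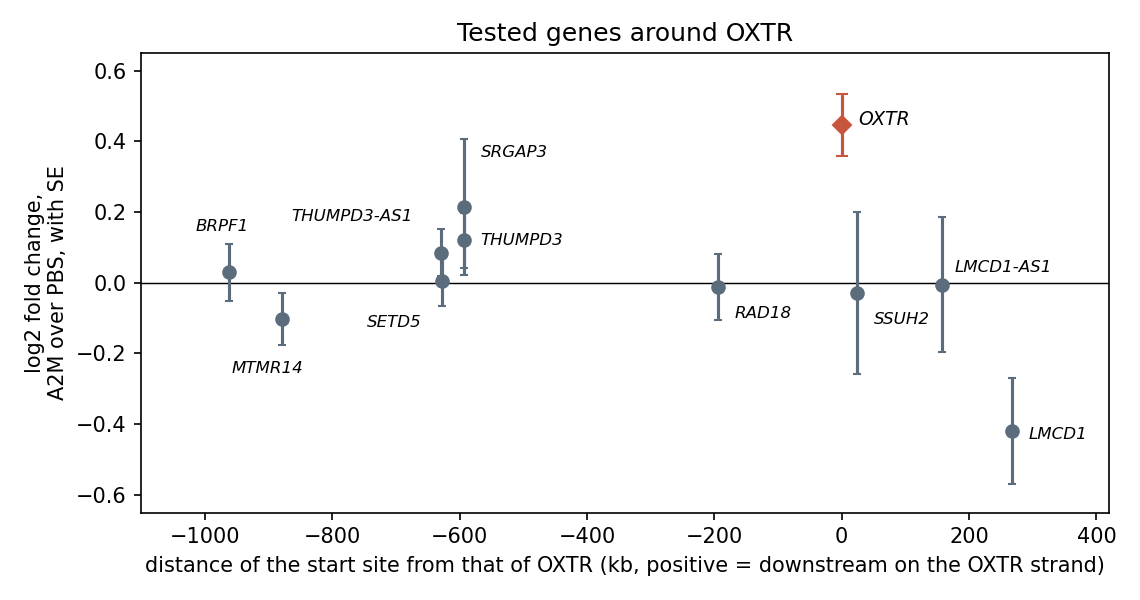
Log2 fold change with SE (A2M over PBS, vertical axis) of the tested genes within 1000000 bases of OXTR, against the distance in kb of their start site from that of OXTR (horizontal axis, positive downstream). OXTR stands at 0.45, LMCD1 at -0.42, and the other 9 genes lie between -0.10 and 0.21.

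The genes whose pattern over the 11 tumours was most like that of OXTR were found by Pearson's r of log2 CPM among 13714 genes, without a test. All points share their libraries and the grouping by treatment, which OXTR was chosen on. The highest values were those of HOXC10 (r = 0.93), a homeobox transcription factor, TXNDC15 (0.89), a thioredoxin domain protein, C9orf64 (0.89) and CDKL3 (0.88), a kinase. HOXC10 was between 2.62 and 3.16 CPM in PBS tumours and between 3.64 and 4.22 CPM in A2M tumours, and A2M-112 was highest for both HOXC10 and OXTR. The lowest values were those of SMIM3 (-0.92), MPI (-0.89), an enzyme of mannose metabolism, FTX (-0.85), a noncoding RNA, FAM160A1 (-0.83) and HEBP2 (-0.83), a heme-binding protein. SMIM3 ran against OXTR, between 13.6 and 17.9 CPM under PBS and between 11.3 and 14.3 CPM under A2M.

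With the group means subtracted, r was 0.69 for HOXC10, 0.74 for TXNDC15, 0.76 for C9orf64 and 0.42 for CDKL3. It was -0.86 for SMIM3, the only one of the 10 genes with the 5 highest and 5 lowest r that remained among the 5 highest or 5 lowest. In 4 of the 10 genes, CDKL3, HOXC10 and FTX among them, the groups did not overlap, beside 0.71% of all genes, and since the 10 were picked for following OXTR this count is only a description. Over the 6 A2M tumours alone, r was 0.95 for C9orf64, 0.74 for HOXC10 and 0.19 for CDKL3. Without PBS-123 and PBS-126, which lay farthest from the median of OXTR, r was 0.94 for HOXC10, 0.81 for TXNDC15 and -0.81 for SMIM3, and -0.54 for FAM160A1. The list changed with single tumours, and without PBS-126 only 1 of the 10 genes remained in it.

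**Figure D5:**
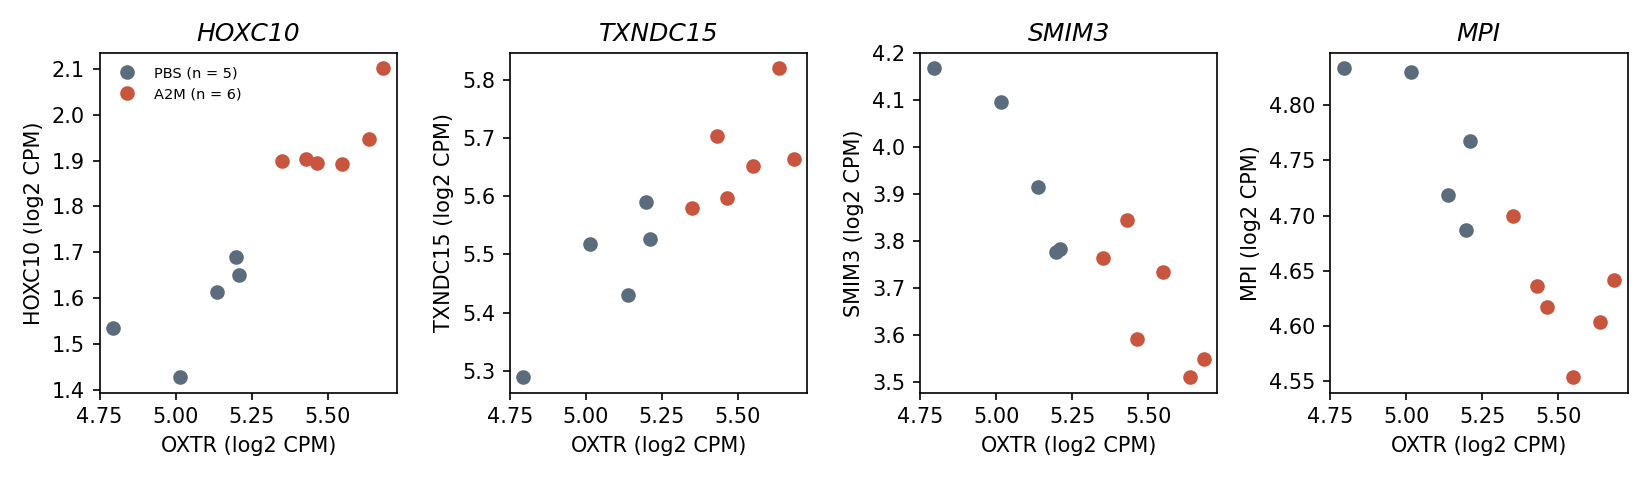
Log2 CPM of HOXC10, TXNDC15, SMIM3 and MPI (vertical axes) against that of OXTR (horizontal axes), with 1 point per tumour, for PBS (n = 5) and A2M (n = 6). HOXC10 and TXNDC15 are higher and SMIM3 and MPI lower where OXTR is higher, and both groups lie along the same direction for SMIM3, with r of -0.94 over PBS and -0.75 over A2M tumours.

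The cell type behind the reads was compared with the labels. The tumours grew from a human cell line in mice, and only reads assigned to human were counted. Cells of the host could therefore enter the marker sums below only through reads assigned to the wrong species. The 5 epithelial markers CDH1, EPCAM, KRT8, KRT18 and KRT19 summed to between 896 and 1372 RPKM per tumour. KLK3, the prostate-specific antigen of androgen-dependent cells, had 0 counts in all tumours and KLK2 at most 1. Smooth muscle and myoepithelium, which carry OXTR in normal tissue, were represented by 7 markers that summed to between 33.9 and 49.1 RPKM in PBS tumours and between 32.4 and 51.7 RPKM in A2M tumours, of which SMTN made up 19.4 RPKM, TAGLN 18.8 RPKM and ACTA2 2.42 RPKM, while MYH11 had 0.659, LMOD1 0.387, DES 0.227 and CNN1 0.142 RPKM. This sum differed by -0.855 RPKM between the groups (exact permutation test, p = 0.877), a sign that turned when single tumours were left out.

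Fibroblast markers summed to between 54.3 and 113 RPKM under PBS and between 54.2 and 156 RPKM under A2M (7 genes, difference 26.5 RPKM, exact permutation test, p = 0.225). Most of this was COL1A1, with 89.0 RPKM, followed by COL3A1 with 5.38 RPKM and COL1A2 with 0.530 RPKM, and DCN and LUM had at most 3 and 5 counts. The log2 fold changes of the 5 tested fibroblast genes were all positive, from 0.25 to 0.73 with a median of 0.37, and 1 of them, COL1A2 with 0.73 (SE 0.33), had an unadjusted p under 0.05, beside 7.08% of all genes. The sum differed by 16.7 RPKM without A2M-112. Endothelial markers summed to between 3.44 and 5.31 RPKM over all tumours (5 genes, difference 0.108 RPKM), of which PECAM1 made up 3.93 RPKM. Of the 4 tested, 1 had an unadjusted p under 0.05, beside 7.08% of all genes. This was VWF, with 11 to 33 counts and a log2 fold change of -0.42 (SE 0.17). Leukocyte markers summed to between 12.1 and 16.8 RPKM (6 genes, difference -0.132 RPKM), of which CD68 made up 13.1 RPKM, and CD3E of T cells had at most 4 counts. The differences of the endothelial and leukocyte sums changed sign with single tumours left out. The epithelial sum differed by -80.8 RPKM, and by -27.0 RPKM without A2M-131, -49.1 RPKM without PBS-125, -121 RPKM without PBS-126 and -122 RPKM without A2M-132. The sum of the 5 androgen-dependent luminal markers differed by 2.03 RPKM, and by 0.157 RPKM without A2M-112 and 3.09 RPKM without A2M-128. Adjusted over the 6 marker lists, all exact permutation p-values were 0.877. The part of these markers in the difference of OXTR was not tested.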

How the data were processed

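RNA sequencing covered 11 PC-3 tumours. Per the labels and methods, the authors prepared TruSeq libraries, which do not mark strand, converted reads with bcl2fastq 1.8.4, separated human from mouse reads with xenome, mapped with TopHat2 to hg19 and counted RefSeq genes with featureCounts. Versions of xenome and featureCounts and the strand setting are not given in the sources used here. The authors deposited whole read counts, not normalized. They also deposited RPM, each count divided by the tumour's total, which was checked on the files, and RPKM, in which RPM is divided by exon length.

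Tumours were grouped by the labelled treatment, without pairs or covariates. All 25590 genes entered; filterByExpr kept 16630, whose counts served as library sizes. TMM scaling and the quasi-likelihood test were run in edgeR 4.0.16 (R 4.3.3), with Benjamini-Hochberg adjustment over all tested genes and a threshold of 0.01. SE is the log2 fold change divided by the square root of F. CPM used TMM factors between 0.958 and 1.03, and log2 CPM a prior count of 2. Depth was 17.0 to 35.9 M counts per tumour, and intervals and limits cover counting error only. The fits were tested on simulated data.

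OXTR and the gene lists were chosen with earlier results of these data known. Named were OXTR, all genes of the 2 lists on peptides, sister receptors and peptide processing, in other pathway lists the 2 highest by mean RPKM and those with an unadjusted p under 0.05, the 5 highest other peptide receptors, genes within 1000000 bases, and the 5 genes with the highest and the 5 with the lowest r among those whose mean log2 CPM reached 1. A few genes that this rule names are not reported here. All 217 list symbols were matched, 3 by an older name. Alternatives were RLE, upper quartile and library size scaling, no filter or a minimum of 10 counts in each library, the likelihood ratio test, DESeq2 1.42.0, limma 3.58.1 (voom, or log2(RPKM + 0.1)), and leaving out each tumour. Figures were drawn with matplotlib 3.10.9.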

Additional observations from a re-analysis of the deposited data

Results flagged for a closer look

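Among 110 groups of values searched for a tumour far from the others (Dixon's test, which chance meets in about 1 of 20 groups), 2 were found, and OXTR was in neither. HOXC10, the gene with the pattern most like OXTR, was at 4.22 CPM in A2M-112, above the next tumour of its group at 3.79 CPM and the lowest at 3.64 CPM. This tumour also had the highest OXTR. CAMK2G was at 275 CPM in PBS-124, above the next at 247 CPM and the lowest at 242 CPM.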

How the results depend on the processing

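The log2 fold change of OXTR was between 0.44 and 0.49 with other scalings, filters or tests. With 1 tumour left out it was between 0.38 and 0.48. Its sign was the same under all 20 alternatives, which is no support for the difference. OXTR was chosen on this contrast and its groups did not overlap, so leaving out 1 tumour could not turn the sign. Its rank of 4 among the listed peptide receptors was the same under every alternative tried for it. Of the 10 genes most like OXTR, 5 remained with Spearman's rho, 1 with group means subtracted and between 1 and 9 with 1 tumour left out. No paired analysis was possible because the groups share no tumour numbers. Depth limits the genes under 10 counts, which include OXT, AVP and CD38.

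Genes past the threshold numbered 1 with the likelihood ratio test and 1 with DESeq2, instead of 0, and 241 where the unadjusted p of edgeR and that of DESeq2 both had to be 0.01 or less, a looser rule by construction. With library size scaling the share of higher genes among those with an unadjusted p under 0.05 was 76.8%, instead of 50.2%, and the median log2 fold change of all genes was 0.042. No gene of the pathway lists passed the threshold on the adjusted p in any fit, which leaves the looser rule aside. The smallest adjusted p of a named one was 0.172 (SRC, DESeq2).

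Of 736 recomputed values for 37 named pathway and receptor genes, 43 in 12 genes changed sign, all of small differences; the cause was not tested. AVPR1B was 0.015 with limma-voom and 0.029 with limma on log2(RPKM + 0.1), RGS2 -0.032 with limma-voom, RELA -0.0025 without a filter, and F2R 0.012 with upper quartile factors, 0.041 with library size, 0.010 with limma-voom and 0.046 with limma on log2(RPKM + 0.1). With 1 tumour left out the ranges were -0.012 to 0.13 (AVPR1A), -0.25 to 0.12 (AVPR1B), -0.020 to 0.36 (PCSK5), -0.098 to 0.24 (LNPEP), -0.15 to 0.0078 (THOP1), -0.028 to 0.062 (CALM2), -0.17 to 0.25 (RGS2), -0.0028 to 0.075 (CLTC), -0.037 to 0.042 (RELA), -0.12 to 0.033 (CAV1), -0.043 to 0.15 (F2RL1) and -0.083 to 0.10 (F2R). Marker sums then differed by -3.02 to 1.00 RPKM (smooth muscle and myoepithelium), -0.0688 to 0.382 RPKM (endothelium) and -0.772 to 0.353 RPKM (leukocyte), the last by 0.0826 as a mean of log2(RPKM + 0.1).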
